A study of Homo sapiens with 8 samples.

Results

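Genes that encode factors of 3′ splice site and branch point recognition were followed library by library in A549 cells, an established line from a human lung adenocarcinoma. They were U2AF2, U2AF1, U2AF1L4, ZRSR2, SF1, PUF60, SF3A1 and SF3B1. The genes were taken by symbol, as 8 of the 17056 rows of the deposited table. The 8 were picked as a group with their values in these libraries already known. Their levels, their differences and the calls of the statistical model on them are therefore descriptions, and no p-value is printed for them. The study raised or lowered AFAP1-AS1, a long non-coding RNA antisense to the gene AFAP1, and sequenced 8 RNA libraries, 2 per group. The vector group (genotype label "Vecctor") carried the control vector, OE the overexpression of AFAP1-AS1, ASONC was the negative control of the knockdown and ASO the knockdown of AFAP1-AS1. All 4 groups are the same cell line, and no other allele, agent, dose or time is named in the labels. How the vector or the knockdown reagent was delivered, and whether replicates are separate cultures, the labels do not say, so any spread between replicates may be technical. AFAP1-AS1 itself was not analysed here, so its level did not check the group labels.

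In an intron, the 3′ end is marked by a branch point, a run of pyrimidines and a final AG. SF1 binds the branch point, the large U2AF subunit (U2AF2) binds the pyrimidines and the small subunit (U2AF1) touches the AG, after which SF1 gives way to the U2 small nuclear ribonucleoprotein (snRNP), whose SF3A and SF3B complexes hold the branch point. U2AF1L4 is a paralog of the small subunit, ZRSR2 takes its place at the introns of the minor, U12-type spliceosome, and PUF60 is a relative of U2AF2 that also binds pyrimidines. U2AF1, SF3B1 and ZRSR2 are known as recurrently mutated genes in myeloid neoplasms, and U2AF1 also in lung adenocarcinoma.

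U2AF1 cannot be measured on its own in this genome build, and the sequences show why. The build (GRCh38, GENCODE release 29) holds U2AF1 on chromosome 21 from 43092956 to 43107587 and a near-identical gene, U2AF1L5, on the same chromosome from 6484623 to 6499261, both on the minus strand. The opening 132 coding bases, which are the first pair of coding exons, show that no read within them can tell the copies apart, and are printed 5′ to 3′ for both genes and for U2AF1L4, with capitals where U2AF1L4 differs from U2AF1.
U2AF1: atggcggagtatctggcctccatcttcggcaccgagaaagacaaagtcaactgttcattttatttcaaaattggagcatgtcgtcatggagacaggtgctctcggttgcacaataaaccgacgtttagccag
U2AF1L5: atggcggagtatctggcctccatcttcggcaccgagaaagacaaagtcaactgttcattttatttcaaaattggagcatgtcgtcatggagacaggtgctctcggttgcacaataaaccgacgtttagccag
U2AF1L4: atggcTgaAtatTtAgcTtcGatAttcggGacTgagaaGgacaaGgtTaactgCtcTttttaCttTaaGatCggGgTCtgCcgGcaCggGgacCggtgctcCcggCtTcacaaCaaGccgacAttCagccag
U2AF1 and its copy are the same in this stretch, and their whole coding sequence of 723 bases has 0 differences. U2AF1L4, the paralog, differs from U2AF1 at 33 of the 132 bases, so a read of this stretch can be assigned to it. Of the 863 windows of 100 bases in the U2AF1 transcript with this coding sequence, 29 (3.4%) are not found in U2AF1L5, and of the 798 in that of U2AF1L5 none is missing from U2AF1. The 250 bases before the start of the 2 genes (RefSeq, GRCh38.p14) also have 0 differences. Over all transcripts, 89.4% of the windows of U2AF1 occur in another gene, against 12.9% for U2AF1L4, 4.5% for ZRSR2 and 0.0% for each of the other 5 genes.

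U2AF2 lies on chromosome 19 from 55654146 to 55674715 and U2AF1L4 on the same chromosome from 35742464 to 35745445, where 30.3% of its exonic bases are shared with PSENEN or AD000671.2. Reads in that overlap cannot be assigned without strand, and the labels do not state strand use. Of the U2AF1L4 windows of 100 bases, 12.9% occur in AD000671.2 in the same sense, where strand would not separate the reads either. ZRSR2 is on chromosome X (15790472 to 15823260), SF1 on chromosome 11 (64764606 to 64778786), PUF60 on chromosome 8 (143816344 to 143829859), SF3A1 on chromosome 22 (30331988 to 30356947) and SF3B1 on chromosome 2 (197389784 to 197435091).

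The libraries were alike in depth, with 29900101 to 33267063 reads recovered from the deposited values. Values are FPKM, reads scaled by gene length and by library size. They summed to 371926.6 to 437923.9 over the genes of a library, so other scalings were tried, and levels of different genes compare only through the gene lengths that the authors used, which the labels do not give. The epithelial keratins KRT8 (1090 to 1320 FPKM) and KRT18 (981 to 1310) were high, while KRT19, EPCAM and CDH1 stayed under 5 FPKM. Of 7 markers of immune, endothelial and fibroblast cells, 6 were in the table, with PTPRC between 0 and 0.00429 FPKM and CDH5 between 0 and 0.352. Their sum was 50.2 to 51.4 FPKM in the vector libraries, 50.3 to 51.6 in OE, 91.8 to 92.8 in ASONC and 66.3 to 67.4 in ASO, nearly all of it CD68, a lysosomal membrane protein gene. The ASONC libraries had 1435 and 1341 genes at 0 against 2205 to 2327 in the other 6. In bulk RNA, fewer cells of a type and less RNA per cell cannot be told apart.

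U2AF2, the large U2AF subunit, was the highest of the 8 genes and the most even. Its FPKM was 106 and 105 in the vector libraries, 107 and 105 in OE, 102 and 102 in ASONC, and 105 and 110 in ASO. The 8 libraries lay within 1.08-fold of each other, and their coefficient of variation of 2.38% ranked 10623 of 10648 genes, where the median gene had 14.4%. This evenness holds for FPKM as deposited: the ASONC difference from vector was -0.05 in log2(FPKM + 1), but -0.11 with median-of-ratios scaling, -0.27 with TPM and -0.37 after a correction for gene length and GC content, each called lower.

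U2AF1, the small subunit, had the widest range of the 8. Its FPKM was 9.46 and 8.93 in the vector libraries, 0.821 and 1.82 in OE, 1.14 and 0.977 in ASONC, and 5.51 and 0.833 in ASO. Both vector libraries were higher than the other 6, and the first ASO library lay between them and the remaining 5. The values rest on 355 and 366 reads in vector, 33 and 76 in OE, 45 and 40 in ASONC, and 221 and 33 in ASO. The coefficient of variation over the 8 libraries was 101%, rank 26 of 10648 genes. The ratio of U2AF2 to U2AF1 ran from 11.2 in a vector library to 131 in an ASO library.

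Within the ASO group, U2AF1 differed between replicates more than any other gene tested. The libraries were 6.61-fold apart, a gap of 1.83 on the log2(FPKM + 1) scale that ranked 1 of 10648, while the median gene had a gap of 0.0666. In OE the gap was 0.63 (rank 14), and in vector and ASONC it was 0.08 and 0.11. None of the other 7 genes exceeded a gap of 0.21 in any group. The 2 replicates of ASO therefore give opposite pictures of this gene, and its ASO mean of 3.17 ± 3.31 FPKM (SD, n = 2) describes neither.

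Reads of the copy did not make up for those that U2AF1 lacked. U2AF1L5 had 2.57 and 2.73 FPKM in vector, 1.66 and 2.15 in OE, 2.10 and 2.57 in ASONC, and 2.86 and 1.76 in ASO. The copy thus stayed within 1.72-fold, with its lowest values in the first OE and the second ASO library, where U2AF1 was lowest as well. U2AF1 held 77.9% and 75.8% of the pair's reads in vector, 32.0% and 44.7% in OE, 34.1% and 26.7% in ASONC, and 64.8% and 31.1% in ASO. The pair summed to 12.0 and 11.7 FPKM in vector, 2.49 and 3.97 in OE, 3.23 and 3.54 in ASONC, and 8.37 and 2.59 in ASO, so the same libraries were high in the sum as in U2AF1. How the authors treated reads that match both genes is not stated in the labels, and its part in these values was not tested.

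**Figure D1:**
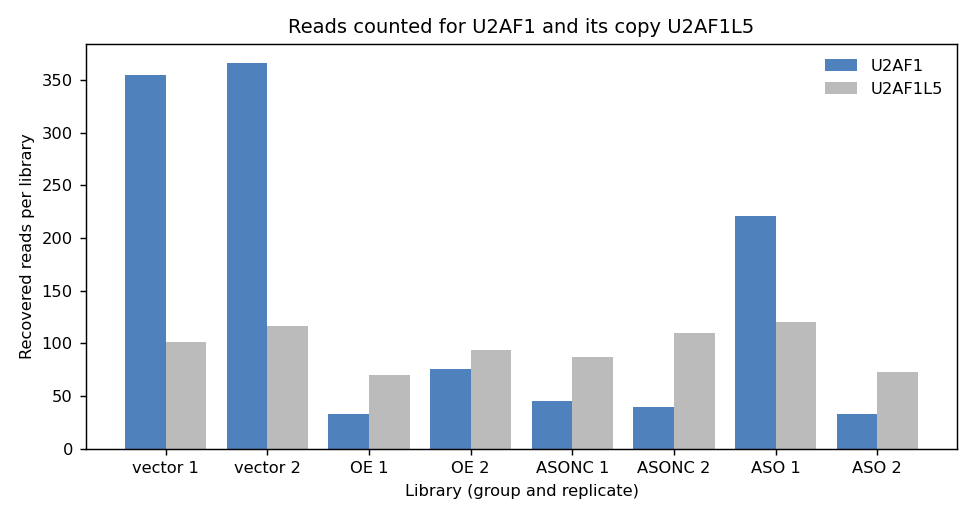
Reads recovered for U2AF1 (blue bars) and its copy U2AF1L5 (grey bars) in each of the 8 libraries, as counts per library on the vertical axis. U2AF1 exceeds its copy in both vector libraries (355 and 366 reads) and in the first ASO library (221), and lies below it in the other 5.

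Other chromosome 21 genes with a copy in the build differed in how even their replicates were. When each gene was ranked by its largest replicate gap in any group, U2AF1 ranked 4, GATD3B ranked 45, U2AF1L5 167, GATD3A 184 and SIK1B (a salt-inducible kinase) 5371 of 10648. CBS (cystathionine beta-synthase) had 1.28 and 2.38 FPKM in ASONC and at most 1.23 in the other 6 libraries. It passed the filter on low values through ASONC, the group of its largest gap, so its rank is not given. SMIM11A, a small membrane protein gene, had 0.234 and 6.47 FPKM in the ASONC libraries and at most 0.363 in the other 6, so it passed the filter on low values through 1 library and its rank is not given. CBSL, the copy of CBS, was listed at 0 in the second vector and the first OE library and had 81 reads in the second OE library. SIK1 held 1.78% to 3.74% of the reads it and SIK1B had together, with 1.78% and 3.58% in the ASO libraries.

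The genes whose levels over the 8 libraries followed U2AF1 most closely were SLC27A2 (Pearson r = 0.92), ST7 (0.92), AGAP4 (0.90), PGBD2 (0.89) and C18orf54 (0.87), on the log2(FPKM + 1) scale. SLC27A2, a fatty acid transport protein gene, had 12.9 and 13.2 FPKM in vector, 11.5 and 11.6 in OE, 10.9 and 10.9 in ASONC, and 12.8 and 11.6 in ASO, a much smaller range than that of U2AF1. The points are 8 libraries of 4 groups, and they share groups and library sizes, so the correlations are descriptions. The same measure was 0.76 for U2AF1L5 and 0.04 for U2AF2.

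U2AF1L4, the paralog of the small subunit, went from 11.4 and 11.3 FPKM in vector to 13.6 and 11.6 in OE, 12.2 and 13.0 in ASONC, and 14.8 and 14.1 in ASO. Both ASO libraries were the highest of the 8, and both vector libraries the lowest. Its FPKM was above that of U2AF1 in each of the 8 libraries, but in the vector libraries it was below the sum of U2AF1 and U2AF1L5 (12.0 and 11.7). ZRSR2, the minor-intron counterpart, was the lowest gene of the 8 in the vector libraries, with 3.54 and 3.91 FPKM there and 3.88 and 3.37 in OE, against 2.03 and 2.35 in ASONC and 1.81 and 2.01 in ASO. All 4 vector and OE libraries were above all 4 ASONC and ASO libraries.

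SF1, the branch point protein, split in the same way as ZRSR2. It had 55.9 and 50.2 FPKM in vector, 53.0 and 51.0 in OE, 38.6 and 37.3 in ASONC, and 38.6 and 37.9 in ASO. PUF60 had 65.0 and 69.9 in vector, 69.6 and 67.2 in OE, 59.9 and 59.3 in ASONC, and 56.2 and 52.9 in ASO. Its libraries also separated into the same sets of 4, but with a narrower range, 1.32-fold against 1.50-fold for SF1.

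Both SF3 genes were lower in ASONC and ASO, SF3B1 by more. SF3A1, the largest SF3A subunit, had 33.2 and 31.4 FPKM in vector, 30.4 and 27.5 in OE, 21.6 and 23.9 in ASONC, and 20.9 and 22.5 in ASO. SF3B1, the SF3B subunit that encloses the branch point adenosine, had 57.6 and 59.8 in vector, 61.1 and 58.6 in OE, 29.7 and 27.5 in ASONC, and 35.1 and 33.5 in ASO. The SF3B1 to SF3A1 ratio was 1.73 and 1.90 in vector, 2.01 and 2.13 in OE, 1.38 and 1.15 in ASONC, and 1.68 and 1.49 in ASO. SF3B1 was above SF1 in the vector and OE libraries and below it in the ASONC and ASO libraries as deposited. After the length and GC correction, the differences of ASONC from vector were -0.65 for SF3B1 and -0.64 for SF1.

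**Figure D2:**
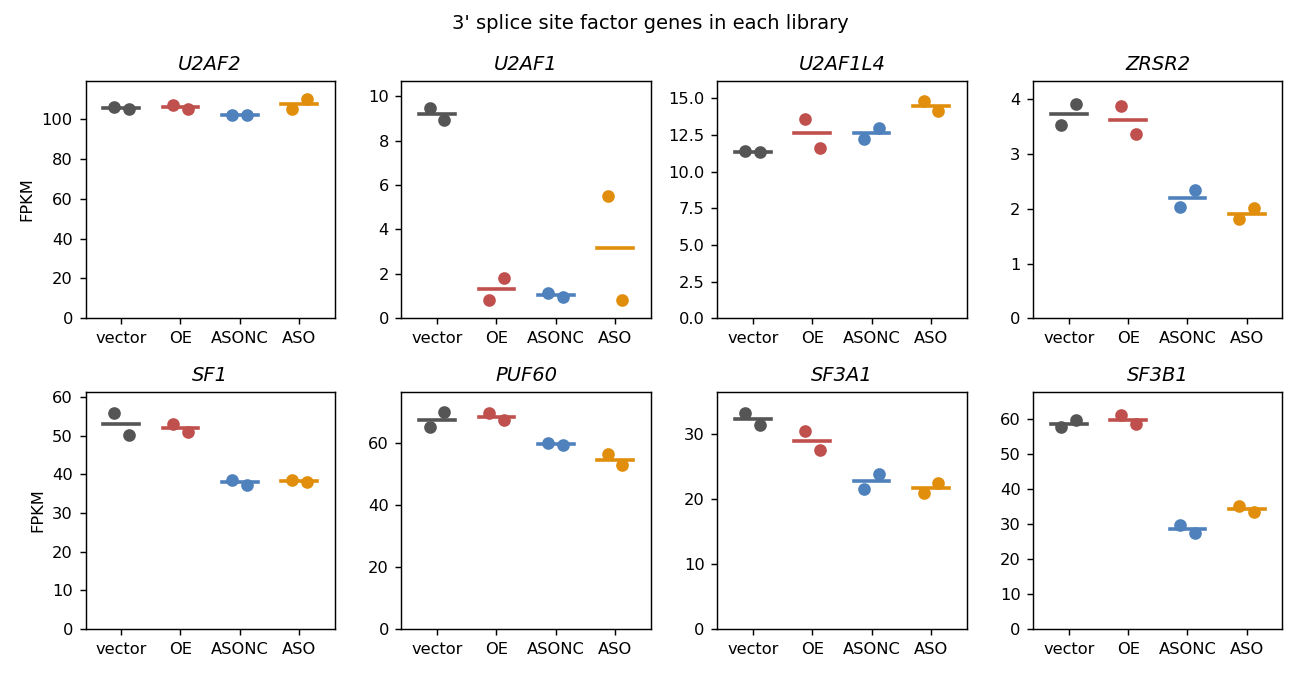
FPKM of each of the 8 genes (vertical axis, from 0) in the 2 libraries of each group (points), with the group mean as a line. U2AF2 is nearly level, U2AF1 is high in vector and in 1 of the 2 ASO libraries, and ZRSR2, SF1, PUF60, SF3A1 and SF3B1 are lower in ASONC and ASO than in vector and OE.

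In the OE libraries 7 of the 8 genes were close to their vector level. Differences, taken in log2(FPKM + 1), come out too small for low genes and are given with the standard error (SE) of the model fitted over all genes. They were 0.00 ± 0.04 for U2AF2, 0.03 ± 0.05 for SF3B1, 0.02 ± 0.05 for PUF60, -0.03 ± 0.05 for SF1, -0.03 ± 0.09 for ZRSR2, 0.13 ± 0.07 for U2AF1L4 and -0.15 ± 0.07 for SF3A1. U2AF1 was the exception, with a mean of 1.32 ± 0.705 FPKM against 9.20 ± 0.375 (SD, n = 2), a difference of -2.17 ± 0.41. It was about as low without overexpression, in ASONC (1.14 and 0.977 FPKM) and in the second ASO library (0.833). For the sum of U2AF1 and U2AF1L5 the difference of OE from vector was -1.63, not called. The limma model called 0 of the 8 (Benjamini-Hochberg adjusted p below 0.05), as it called 0.0657% of all genes, and from that count nothing is read. The spread that the model uses for U2AF1 is pooled over the 4 groups and includes the ASO gap. Fitted to the OE and vector libraries alone, U2AF1 was called lower. The libraries did not overlap between groups for 3 of the 8 (U2AF1L4 higher, U2AF1 and SF3A1 lower), where 35.1% of all genes did not.

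Knockdown against its own control gave small differences of mixed sign. SF3B1 was higher by 0.25 ± 0.05, from 28.6 ± 1.53 to 34.3 ± 1.10 FPKM (SD, n = 2), and was the single one of the 8 that the model called, where it called 22.2% of all genes. This difference was 0.15 after a correction for gene length and GC content, and was then not called, while U2AF1L4 (0.28) and U2AF2 (0.17) were called higher. As deposited, U2AF1L4 differed by 0.19 ± 0.07, U2AF2 by 0.07 ± 0.04, SF1 by 0.01 ± 0.05, SF3A1 by -0.06 ± 0.07, ZRSR2 by -0.13 ± 0.09 and PUF60 by -0.13 ± 0.05. The median of the 8 was 0.04, beside 0.02 over all genes tested. For U2AF1 the difference of 0.75 ± 0.41 rested on the first ASO library: it was -0.16 without that library and 1.66 without the second. For 5 of the 8 the libraries did not overlap between groups (62.5% of all genes).

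More genes differed between the 2 control groups than with either treatment. ASONC was below vector in U2AF1 (-2.31 ± 0.41), SF3B1 (-1.01 ± 0.05), ZRSR2 (-0.57 ± 0.09), SF3A1 (-0.49 ± 0.07), SF1 (-0.47 ± 0.05) and PUF60 (-0.17 ± 0.05). In FPKM, SF3B1 was at 28.6 ± 1.53 against 58.7 ± 1.56 (SD, n = 2), a ratio of 0.487, and SF1 at 37.9 ± 0.884 against 53.0 ± 4.03, a ratio of 0.716. U2AF2 (-0.05 ± 0.04) and U2AF1L4 (0.14 ± 0.07) were not called. The 6 lower genes stand beside 68.6% of all genes called, and 31.8% of all genes called lower, so a call here is common, and the members' median of -0.48 beside 0.04 over all genes is given as a description. For all 8 the libraries did not overlap between groups, as for 84.7% of all genes. PUF60 was not called without the second vector library (-0.12). The vector libraries enter both this comparison and that of OE, and the ASONC libraries both this one and that of ASO, so the comparisons are not independent. The labels tie the vector to overexpression and ASONC to knockdown, so what separates the control groups cannot be told apart from the treatment of each arm. Against the vector libraries, ASO had 7 of the 8 called, U2AF1L4 higher and the other 6 lower, where 62.9% of all genes were called. As deposited, U2AF2 was the gene not called. U2AF1L4 was not called higher there with TPM scaling or after the length and GC correction. In each of these settings 7 of the 8 were called lower, with no share of all genes at hand.

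The ASONC difference followed gene length and GC content over all genes. Across 10632 genes, which are not independent replicates, its Spearman correlation was -0.47 with exonic length and 0.52 with GC content. Exonic length is over all transcripts of a gene in GENCODE and is not the length behind the FPKM of every gene. In the first vector library, U2AF1 (11112 exonic bases) had 355 reads at 9.46 FPKM, and SF3B1 (9164 bases) 15847 reads at 57.6. Reads per FPKM thus differed far more than these lengths, on which the corrected values rest. The correlations were 0.24 and -0.45 for ASO against ASONC, and -0.06 and 0.13 for OE against vector. SF3B1, at 9164 exonic bases and 41.0% GC, is long and AT-rich. After the correction its ASONC difference from vector was -0.65 instead of -1.01. The compact, GC-rich U2AF2 (4115 bases, 61.1% GC) went from -0.05 to -0.37, and U2AF1L4 changed sign from 0.14 to -0.21. With TPM scaling U2AF1L4 also turned, to -0.07. All 8 genes were called lower after the correction, and 7 of 8 with TPM or median-of-ratios scaling, against 6 as deposited. Of all genes, 59.1% were called with the correction (49.0% of the calls higher), 70.1% with TPM (31.7% of the calls higher) and 68.4% with median-of-ratios scaling (47.2% of the calls higher). TPM moved the median of all genes to -0.15.

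**Figure D3:**
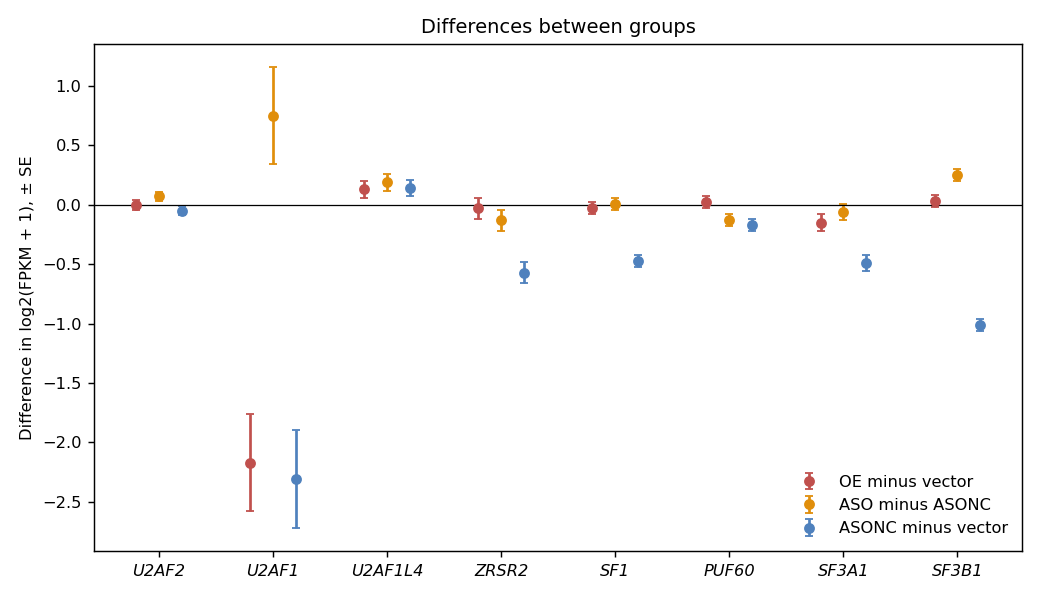
Differences between groups for each of the 8 genes in log2(FPKM + 1) (vertical axis), as model estimates with their SE (bars), for OE minus vector (red), ASO minus ASONC (orange) and ASONC minus vector (blue). The difference of ASONC from vector is -2.31 for U2AF1, which has the widest errors (±0.41), and -1.01 for SF3B1.

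The further parts of the 3′ splice site machinery were chosen by function, but with earlier results of these data known, and were read with the limma test. Genes named from these lists were picked by their small p or after their values were seen, so their p-values are descriptions. Of 38 genes outside the 8 (12 U2 snRNP protein genes, 17 branch point and 3′ splice site cofactors and 9 factors of the second catalytic step), 0 were called with overexpression, and 2 had an unadjusted limma p below 0.05, as had 6.93% of all genes. The 17 cofactors include U2AF1L5, the near-identical copy of U2AF1, so the 38 are not fully separate from the 8. U2AF1L5 was among those 2 genes. With knockdown, 9 of the 38 rose and 2 fell (28.9%, beside 22.2% of all genes). In ASONC against vector, 7 rose and 25 fell (84.2%, beside 68.6% of all genes). The median difference in that comparison was -0.33, beside 0.04 for all genes.

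Of the SF3 complexes, 4 SF3B subunits were higher and SF3B2, SF3B3, SF3A2 and SF3A3 lower in ASONC than in vector as deposited, but the 4 higher ones were not all higher after rescaling. SF3B5, a small subunit, rose from 116 ± 0.0452 to 183 ± 11.7 FPKM (0.65 ± 0.05, limma adjusted p = 3.49e-07), and SF3B6, which contacts the branch point adenosine, from 133 ± 8.42 to 168 ± 0.519 (0.34 ± 0.05, adjusted p = 7.18e-05). PHF5A and SF3B4 rose by 0.17 ± 0.06 and 0.16 ± 0.04 (limma adjusted p = 0.0198 and 0.00557). SF3B2 fell by 0.38, SF3A3 by 0.37, SF3B3 by 0.25 and SF3A2 by 0.19, each past the limma threshold, which 68.6% of all genes passed. After the length and GC correction SF3B3 was at -0.05 and not called, while SF3B2 (-0.14), SF3A3 (-0.43) and SF3A2 (-0.65) were called lower. With the same correction SF3B5 was at -0.05 and SF3B6 at 0.12, neither called, and SF3B4 and PHF5A were lower, at -0.24 and -0.23. With TPM scaling SF3B5 (0.44) and SF3B6 (0.12) were still called higher, and SF3B4 and PHF5A were at -0.06 and -0.05 and not called. Of all genes, 59.1% were called with the correction and 70.1% with TPM, so the calls on these subunits are descriptions.

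The helicase DDX46, which remodels the U2 snRNP, followed SF3B1. It fell from 35.2 and 35.6 FPKM in vector to 17.3 and 16.5 in ASONC (-1.03 ± 0.05, limma adjusted p = 8.67e-09) and rose to 20.6 and 21.3 in ASO (0.30 ± 0.05 against ASONC, limma adjusted p = 0.00129). After the correction these were -0.60 and 0.17, both still called. SNRPB2, the U2 B″ protein gene, rose in ASONC (0.39 ± 0.06, limma adjusted p = 0.000117) and by 0.46 after the correction. HTATSF1, which binds SF3B1, fell by 0.44.

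Among the 17 cofactors 13 fell and 0 rose in ASONC against vector (76.5%, beside 68.6% of all genes). U2SURP (SR140), a U2-associated protein gene, fell from 28.2 and 28.7 FPKM to 13.8 and 12.6 (-1.05 ± 0.06, limma adjusted p = 2.17e-08), RBM39, a U2AF2-related RNA-binding protein gene, from 41.4 and 41.7 to 27.7 and 26.9 (-0.59 ± 0.04, limma adjusted p = 2.5e-07), and DHX15, a helicase gene, from 83.8 and 85.3 to 59.5 and 55.6 (-0.55 ± 0.04, limma adjusted p = 3.53e-07). After the correction U2SURP was at -0.54, RBM39 at -0.17 and DHX15 at -0.11, all still called lower. Of the 17 cofactors 11 were then called lower and 1 higher (RBM23, 0.20), where 59.1% of all genes were called. With knockdown against its control 7 cofactors rose, DHX15 (0.22 ± 0.04, limma adjusted p = 0.00372) and PPP1R8 (0.24 ± 0.05, limma adjusted p = 0.00921) among them, and SUGP1, a G-patch protein gene whose product binds SF3B1, fell (-0.30 ± 0.07, limma adjusted p = 0.0147). The share called was 47.1% of the cofactors, beside 22.2% of all genes. After the correction 3 cofactors were called higher in place of 7, and 1 lower, where 17.1% of all genes were called. DHX15 was at 0.07 and not called, while PPP1R8 was at 0.29 and SUGP1 at -0.23, both called.

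Second step factors gave 2 higher and 6 lower of 9 in ASONC (88.9%, beside 68.6% of all genes). SLU7 fell by 0.67 and DHX38 by 0.42. After the correction 0 of the 9 were higher and 5 lower, where 59.1% of all genes were called. In knockdown CACTIN fell (-0.28 ± 0.06, limma adjusted p = 0.00696) and CDC40 rose (0.29 ± 0.07, limma adjusted p = 0.0136), and neither was called after the correction. Of 14 proteins of the minor spliceosome, the machinery in which ZRSR2 acts, 13 were tested. In ASONC 4 rose and 4 fell (61.5%, beside 68.6% of all genes). RBM41 fell by 0.94 and ZMAT5 rose from 9.65 and 11.1 to 19.6 and 18.8 FPKM (0.83 ± 0.09, limma adjusted p = 7.03e-06), or by 0.49 after the correction. With knockdown CENATAC alone of the 13 was called (7.69%, beside 22.2% of all genes). It fell from 5.71 and 5.46 to 3.59 and 4.24 FPKM (-0.42 ± 0.08, limma adjusted p = 0.00367), and was at -0.48 after the correction.

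Factors outside the 3′ splice site were counted in ASONC against vector as well, where 68.6% of all genes were called. The share called was 72.7% of U1 and 5′ splice site genes, 85.7% of tri-snRNP genes and 85.7% of Sm genes. Of 11 U1 and 5′ splice site genes, 1 rose and 7 fell, and LUC7L3 fell by 1.44. Of 14 tri-snRNP genes, 3 rose and 9 fell. SNRNP200 fell by 0.96, PRPF8 fell by 0.92 and PRPF3 fell by 0.86, and all 3 were called lower after the correction too. Of the 7 Sm genes, which encode the short core proteins of the snRNPs, 6 rose and 0 fell, with SNRPD2 at 0.53 ± 0.04 (limma adjusted p = 7.31e-07) and 0.04 after the correction. After the correction the 7 stood at 3 higher and 2 lower, and with TPM scaling at 4 higher and 1 lower. Of all genes, 59.1% and 70.1% were called in these settings. With overexpression 0 of the genes in these lists were called, where 0.0657% of all genes were.

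**Figure D4:**
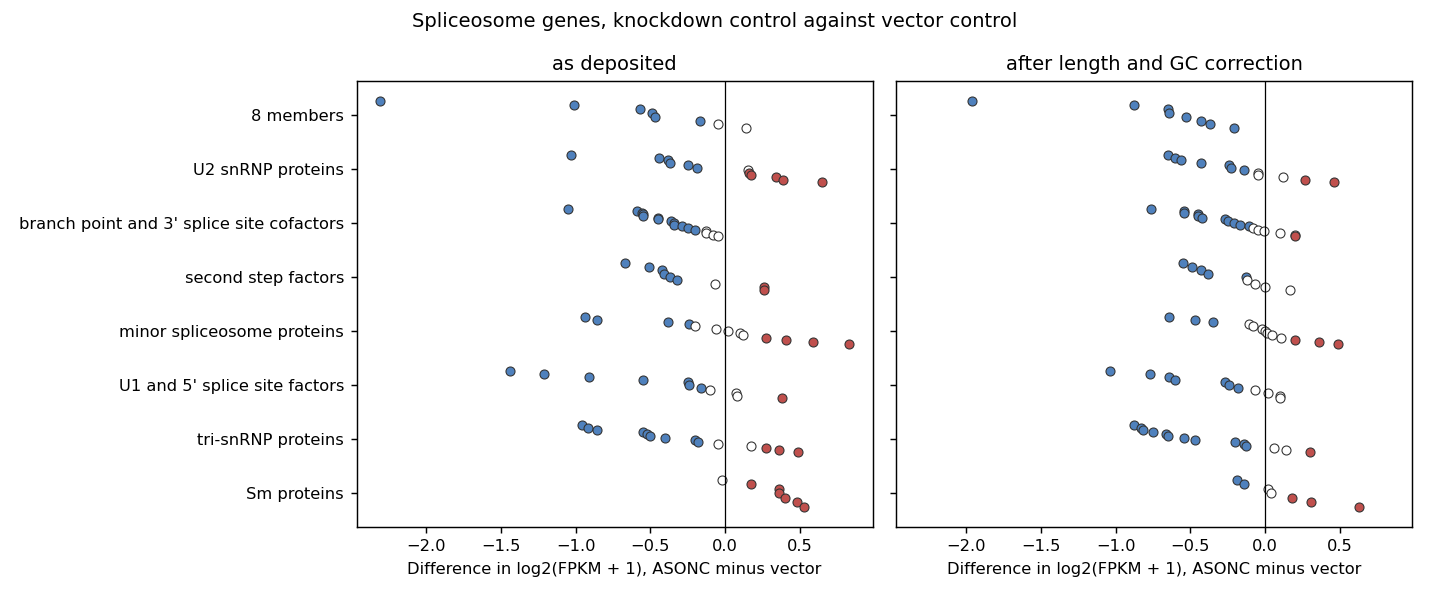
Differences of ASONC from vector in log2(FPKM + 1) (horizontal axis) for each gene of 8 spliceosome groups (rows), as deposited (left) and after correction for length and GC content (right). Red points were called higher, blue points lower and open points were not called. The 8 members and the cofactors lie mainly to the left of 0 in both panels, while the 7 Sm genes lie mainly to the right in the left panel and on both sides in the right panel.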

How the data were processed

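Total RNA of 8 A549 libraries in 4 groups was sequenced. The authors deposited 1 table with FPKM for 17056 gene symbols, per the labels. HISAT2, featureCounts, HTSeq, R 3.2.0 and the build hg38 (GRCh38) are named in the submitters' processing notes, with no role for each. The annotation, the use of strand and the treatment of reads matching several genes were not given in the sources used here.

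Differences were estimated with limma 3.58.1 in R 4.3.3 (eBayes with trend, two-sided tests) from log2(FPKM + 1) of the 10648 genes whose mean reached 1 FPKM, in a single fit of all 8 libraries with 4 residual degrees of freedom. P-values were Benjamini-Hochberg adjusted over those genes and called below 0.05. They measure the spread between these libraries. Groups of 2 give an exact two-sided permutation p of 0.333 at the smallest. The model was tested on simulated data. Replicates exceeded sampling noise, with a chi-square per degree of freedom of 4.96 to 5.68, and were kept separate. Whole reads were recovered from the steps of the FPKM values (within 0.02 reads) for 17021 genes (99.79%). They gave depths, and counts for an alternative. The length and GC correction subtracts the trend of each comparison over genes. Gene positions, transcripts and windows of 100 bases came from GENCODE release 29.

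The members and lists were chosen with earlier results of these data known. Named are the 8 members, U2AF1L5, chromosome 21 genes with a copy, up to 3 genes of each list with the smallest p per comparison, and the 5 genes most correlated with U2AF1. Not every gene this rule names is reported here. The further SF3A and SF3B subunits, SNRPB2, HTATSF1 and RBM23 were named after their values were seen. The alternatives took in 0.1 or 0.5 as the pseudocount, no filter, at least 5 FPKM, TPM and median-of-ratios scaling, a replicate block, a fit restricted to the libraries compared, voom on recovered reads, the length and GC correction, the vector control as reference, the sum of U2AF1 and U2AF1L5, and leaving out each library.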

Additional observations from a re-analysis of the deposited data

How the results depend on the processing

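The labels do not say whether the replicate numbers pair the libraries. Deviations of same-numbered libraries correlated between -0.06 and 0.06 across genes, so no shared effect of the number was seen, which does not settle pairing. With the number as a replicate block, 0 members were called in OE against vector, 1 in ASO against ASONC and 6 in ASONC against vector, the counts without it. The other U2 and 3′ splice site genes gave 0, 11 and 33 against 0, 11 and 32. Of all genes, the block gave 0.0751%, 21.7% and 68.7% called in these comparisons.

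In OE against vector, 1 member (U2AF1, lower) was called with the fit to the 4 compared libraries alone and 1 with voom, instead of 0. Of all genes, 0.0751% and 0.254% were called in those fits. In ASO against ASONC, where 1 member was called, 2 were called with median-of-ratios scaling, 3 with TPM and 2 with voom. The length and GC correction gave 2, and 2 with the replicate block added. Of all genes, 22.2% were called there, 24.1% with median-of-ratios scaling, 24.7% with TPM and 27.2% with voom. The correction gave 17.1% of all genes, and 16.4% with the block added. Of the other U2 and 3′ splice site genes, 11 were called there, 6 with no filter and 7 with the fit to the 4 libraries alone. The length and GC correction gave 6 of them, and 5 with the replicate block added. Of all genes, 13.3% were called with no filter and 20.2% with the fit to the 4 libraries alone. Against the vector control as reference, ASO had 7 members and 25 other genes called, where 62.9% of all genes were called, and SF3B1 turned to -0.76. The cause of these shifts was not tested. In ASONC against vector, members called ran from 4 to 8 and other genes from 26 to 33 over 15 alternatives. The share of all genes called ran from 47.5% with no filter to 74.9% with the minimum mean of 5 FPKM. ZRSR2 and U2AF1 lie under the minimum mean of 5 FPKM and have no value there. Among all genes called in ASO against ASONC, 50.8% were higher, 62.1% with median-of-ratios scaling, 66.4% with TPM and 39.3% with no filter. In ASONC against vector 53.6% were higher, and 31.7% with TPM. U2AF1 rests on 33 to 366 reads per library, SF3B1 on 8263 to 18011.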
